A study of Mus musculus with 3 samples.

Results

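Kruppel-like factors are transcription factors that bind GC-rich and CACCC sequences in promoters through 3 zinc fingers at the end of the protein, and they differ mainly in the region before the fingers, which recruits activators or repressors. In blood vessels Klf2 and Klf4 are known as genes that laminar blood flow switches on in endothelium, through a kinase cascade that ends on MEF2 factors, while Klf4 and Klf5 are known for the change of smooth muscle cells from a contractile to a proliferating state. Klf6 and Klf15 are also known from podocytes, the epithelial cells that cover glomerular capillaries.

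The 10 Kruppel-like factors described here were taken by name: Klf2, Klf3, Klf4, Klf5, Klf6, Klf7, Klf9, Klf10, Klf13 and Klf15, out of 39304 rows in the table. All 10 have a row, and they were chosen with the flow response and the state of mural cells in view, by a rule that sets no limit on a measured value. The choice was made with earlier results of these data known. The donor was 1 male mouse of the C57BL/6 strain, wild type and 8 weeks old, whose glomeruli, the filtering tufts in the kidney, were taken apart into single cells. A Fluidigm C1 microfluidic system captured the cells and made cDNA from each, and qPCR in the wells showed what a cell was, by Gata3 and Igfbp5 for mesangial cells (contractile support cells) and by Pecam1 and Tek for endothelial cells. Amplified material of 15 cells of each type was then combined into 1 pool, from which 3 aliquots were sequenced. There is thus 1 group of 3 aliquots, with no second condition: SD values are over the 3 aliquots (n = 3), measure library making and sequencing, and say nothing of other cells or mice. In a mixture of this kind a gene made by few cells and a gene made weakly by all cells cannot be told apart, nor can the mesangial and the endothelial share of a transcript.

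The library totals recovered from the values were 9141422, 10427635 and 10976563 reads for aliquots 1, 2 and 3. A gene was called detected when it had at least 1 FPKM (reads per kilobase of gene and per 1000000 in the library) in every aliquot. That limit was passed by 21.7% of all rows and 36.5% of protein-coding rows. Marker genes were examined for the labelled cell types. Mesangial markers were detected for 10 of 10 genes and endothelial markers for 11 of 12, with summed levels of 9048 to 9479 and of 2636 to 2687 FPKM over the aliquots. Gata3, Igfbp5, Pecam1 and Tek are among these markers and had served to select the cells. Podocyte markers, of a cell type that was not pooled, were detected for 9 of 12 genes with a summed level of 321 to 341 FPKM. Markers of tubule, blood and macrophage cells were detected for 0 of 13.

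The fingers are shown first because they define the family and because reads from such alike stretches could be shared between its genes. Each line gives the stretch that codes for the last zinc finger, from the GENCODE M21 transcripts on GRCm38, read along the gene's own strand. Capitals mark the codons of the pair of cysteines and the pair of histidines that hold the zinc ion.
Klf2 (chr8:72320851-72320913, plus strand, exon 3 of 3): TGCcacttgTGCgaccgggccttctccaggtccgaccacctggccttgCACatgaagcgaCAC
Klf3 (chr5:64829084-64829146, plus strand, exon 6 of 6): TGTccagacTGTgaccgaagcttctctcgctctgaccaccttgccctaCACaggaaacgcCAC
Klf4 (chr4:55528131-55528193, minus strand, exon 5 of 5): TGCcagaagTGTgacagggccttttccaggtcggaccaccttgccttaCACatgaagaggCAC
Klf5 (chr14:99313258-99313320, plus strand, exon 4 of 4): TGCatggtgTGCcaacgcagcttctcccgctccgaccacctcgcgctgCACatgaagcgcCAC
Klf6 (chr13:5866746-5867277, plus strand, exons 3 and 4 with the intron between them left out): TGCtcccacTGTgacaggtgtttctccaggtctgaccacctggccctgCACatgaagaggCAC
Klf7 (chr1:64035719-64042330, minus strand, exons 3 and 4 with the intron between them left out): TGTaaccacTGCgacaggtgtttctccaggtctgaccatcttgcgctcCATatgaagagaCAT
Klf9 (chr19:23164790-23164852, plus strand, exon 2 of 2): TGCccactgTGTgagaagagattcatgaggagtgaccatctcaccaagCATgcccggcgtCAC
Klf10 (chr15:38295995-38296057, minus strand, exon 4 of 4): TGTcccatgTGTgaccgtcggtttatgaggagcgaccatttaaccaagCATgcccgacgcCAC
Klf13 (chr7:63891628-63891690, minus strand, exon 2 of 2): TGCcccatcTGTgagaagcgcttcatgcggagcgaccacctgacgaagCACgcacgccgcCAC
Klf15 (chr6:90474184-90474246, plus strand, exon 3 of 3): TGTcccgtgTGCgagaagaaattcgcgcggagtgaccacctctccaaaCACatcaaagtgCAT

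Each of the 10 proteins has 3 fingers of this form, and the last one ends 1 residue before the end of the protein in Klf2, Klf4, Klf6 and Klf7 and 39 residues before it in Klf13. Over its 63 bases Klf2 and Klf4 were 82.5% identical, as were Klf6 and Klf7, and Klf9 and Klf13 were 77.8% identical. Klf2, Klf3, Klf4, Klf5, Klf6 and Klf7 shared 65.1% to 82.5% in their 15 pairs, and Klf9, Klf10, Klf13 and Klf15 shared 55.6% to 77.8% in their 6 pairs. Identity between these sets was 47.6% to 60.3% in 24 pairs. Over the whole transcripts, the longest run of identical bases between any 2 of the 10 genes was 36 bases, between Klf3 and Klf13, and the median over the 45 pairs was 15 bases. The read length is not given in the sources used here.

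Promoters were examined because Klf2 and Klf4 are known to be switched on through MEF2 factors and because the factors' own binding sequences are common in the promoters of this family. Windows of 300 bases, 250 before and 50 after the annotated start, were matched by symbol in RefSeq on GRCm38.p6 for 8 of the 10 genes, leaving Klf5 and Klf10 without one. Only the first listed window of a symbol was used, so any other start of a gene was not examined. The Klf7 window lies wholly inside the GENCODE span of that gene. Capitals mark matches on either strand to CACCC, to the GC box GGGCGG and to the MEF2-like pattern, CTA and TAG with any 4 bases between them.
Klf2 (chr8:72318812-72319111, plus strand): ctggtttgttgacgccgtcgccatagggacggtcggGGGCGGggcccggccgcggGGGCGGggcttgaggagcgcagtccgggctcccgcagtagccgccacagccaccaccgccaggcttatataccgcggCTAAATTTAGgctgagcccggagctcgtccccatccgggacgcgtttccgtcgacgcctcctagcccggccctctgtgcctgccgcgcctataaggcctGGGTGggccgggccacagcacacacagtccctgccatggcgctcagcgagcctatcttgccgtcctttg
Klf4 (chr4:55532426-55532725, minus strand): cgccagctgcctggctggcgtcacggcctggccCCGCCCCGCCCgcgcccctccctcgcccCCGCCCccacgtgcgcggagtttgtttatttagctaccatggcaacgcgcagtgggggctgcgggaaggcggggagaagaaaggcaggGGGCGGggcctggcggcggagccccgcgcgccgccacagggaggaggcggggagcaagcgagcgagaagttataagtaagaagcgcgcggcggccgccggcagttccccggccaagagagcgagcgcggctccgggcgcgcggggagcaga
Klf3 (chr5:64803271-64803570, plus strand): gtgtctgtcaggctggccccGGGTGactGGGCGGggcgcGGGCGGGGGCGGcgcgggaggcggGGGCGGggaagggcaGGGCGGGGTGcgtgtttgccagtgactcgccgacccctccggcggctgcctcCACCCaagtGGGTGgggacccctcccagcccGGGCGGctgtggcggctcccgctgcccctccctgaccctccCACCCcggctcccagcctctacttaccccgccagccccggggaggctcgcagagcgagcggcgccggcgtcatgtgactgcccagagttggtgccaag

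The Klf2 window held 1 match to the MEF2-like pattern, whose first base lies at position -118 from the start, and the other 7 windows held none. That pattern occurs in 3.69% of the 32851 windows of the table. CACCC was found in 6 of the 8 windows, against 57.5% of all windows, and the GC box in 7 of 8, against 35.7%. The Klf3 window was the richest in both, with 5 CACCC and 6 GC box matches, of which 1 CACCC match overlaps a GC box. Klf13 also had 1 CACCC match that overlaps a GC box, and its window held 3 GC boxes. The CCAAT box was found in 4 of the 8 windows, against 37.4% of all windows, with 4 matches in Klf6, 3 in Klf9 and 2 in Klf13. The TATA box letters TATAAA were found in 0 of 8, against 13.6%. The 8 windows had a G+C content of 58.3% (Klf7) to 76.7% (Klf3), where the median window has 52.7%, and windows of matched composition were not compared. A match describes letters and does not show binding.

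**Figure D1:**
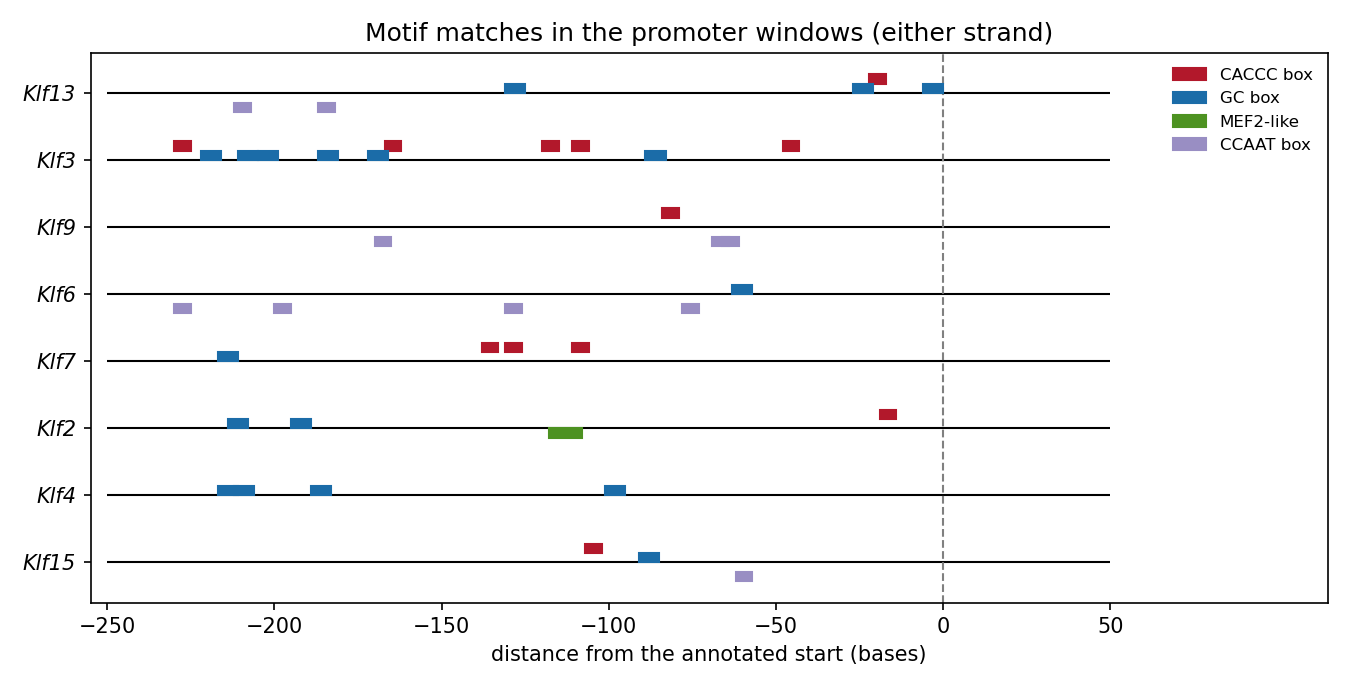
Motif matches in the promoter windows of the 8 factors with a window, drawn by distance from the annotated start in bases, with coloured blocks for matches on either strand. The single MEF2-like match is in Klf2, Klf3 holds 5 CACCC and 6 GC box matches, and CCAAT matches are found in Klf6, Klf9, Klf13 and Klf15.

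Of the 10 factors 7 were detected, namely Klf13, Klf3, Klf9, Klf6, Klf7, Klf2 and Klf4. By the same rule 21.7% of all rows and 36.5% of the 21226 protein-coding rows were detected. As the 10 factors were chosen with earlier results known, these shares are set beside them as description only. Klf10 and Klf15 had a few reads and Klf5 was listed at 0 in each aliquot. The median of the 10 mean levels was 33.4 FPKM, where the median over all rows is 0 and over the 11142 genes above 0 it is 10.6 FPKM. Together the 10 genes took 0.173%, 0.177% and 0.177% of the reads in aliquots 1, 2 and 3, by recovered reads. A common factor missed in a member's reads, which is probable for Klf7, would raise these shares.

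Klf13 was the highest. It is a ubiquitous factor known for late activation of the chemokine gene Ccl5 in T cells, and its gene (ENSMUSG00000052040) lies at chromosome 7, 63886351 to 63938915, minus strand, on GRCm38. Its deposited levels were 384, 394 and 395 FPKM in aliquots 1, 2 and 3, a mean of 391 ± 5.62 FPKM (SD, n = 3), from 7396, 8639 and 9116 reads. The aliquots lie within a few percent of each other. Klf13 held rank 206 among all rows, above 98.2% of the genes that have reads. It made up 51.8% ± 0.0713 of the summed FPKM of the 17 Klf genes examined and 46.0% ± 0.117 of their reads, a share that is not per length. The read share of Klf13 would be lower if a common factor was missed in the Klf7 reads.

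The next 3 factors were a repressor, a hormone-responsive member and an injury-responsive member. Klf3 (ENSMUSG00000029178, chromosome 5, 64803388 to 64832901, plus strand), which represses genes through the corepressor CtBP, had 107, 107 and 108 FPKM, with a mean of 107 ± 0.522 FPKM. Its coefficient of variation of 0.488% was the smallest among the factors with reads. Klf9 (ENSMUSG00000033863, chromosome 19, 23141226 to 23168134, plus strand), a target of glucocorticoid and thyroid hormones, had 88.2, 90.8 and 88.3 FPKM, with a mean of 89.1 ± 1.48 FPKM. Klf6 (ENSMUSG00000000078, chromosome 13, 5861482 to 5870394, plus strand), an early gene of tissue injury, had 63.1, 62.6 and 64.3 FPKM, with a mean of 63.3 ± 0.881 FPKM. The ranges of these 3 genes do not overlap on the deposited scale, and they stand above 90.1%, 88.3% and 83.5% of the genes with reads.

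Klf7 and the flow-regulated Klf2 stood next to each other. Klf7 (ENSMUSG00000025959, chromosome 1, 64029447 to 64122282, minus strand), known for axon growth in neurons, had 33.2, 34.7 and 34.0 FPKM, with a mean of 34.0 ± 0.748 FPKM. Klf2 (ENSMUSG00000055148, chromosome 8, 72319033 to 72321656, plus strand) had 31.5, 34.1 and 32.8 FPKM, with a mean of 32.8 ± 1.30 FPKM, from 532, 657 and 665 reads. Their ranges over the aliquots overlap, while within each aliquot Klf7 was slightly higher, with a log2 ratio to Klf2 of 0.08, 0.03 and 0.05 in aliquots 1, 2 and 3. Reads of Klf7 are uncertain in part: 39.4% of its exon bases are shared with genes on the opposite strand, Gm26649 and Gm13748, and whether counting used strand is not given in the sources used here. Both of those genes were listed at 0 in each aliquot.

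Klf4 (ENSMUSG00000003032, chromosome 4, 55527143 to 55532466, minus strand), the partner of Klf2 in the flow response, was the lowest detected factor. It had 13.0, 14.9 and 16.1 FPKM, with a mean of 14.6 ± 1.53 FPKM, from 175, 228 and 259 reads. Aliquot 1 was lowest and aliquot 3 highest, and all 3 lie below every value of Klf2. The log2 ratio of Klf2 to Klf4 was 1.17 ± 0.12 over the aliquots.

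Klf10 (ENSMUSG00000037465, chromosome 15, 38291463 to 38300706, minus strand), an early target of TGF-beta, had 0.180, 0.126 and 0.539 FPKM, from 5, 4 and 18 reads. Aliquot 3 alone holds most of them: the mean of 0.281 FPKM becomes 0.153 FPKM without it. Its 27 reads have a 95% exact Poisson interval of 17.8 to 39.3 reads, for counting error only, since reads copied by PCR are not independent molecules. Klf15 (ENSMUSG00000030087, chromosome 6, 90462576 to 90475238, plus strand), a regulator of metabolism in muscle and of podocyte differentiation, had 0.138, 0.121 and 0.192 FPKM, from 3, 3 and 5 reads. The ranges of Klf10 and Klf15 overlap, and each of their values lies below every value of Klf4. Klf5 (ENSMUSG00000005148, chromosome 14, 99298691 to 99315036, plus strand), known in smooth muscle remodelling and in epithelia, was listed at 0 in aliquots 1, 2 and 3. A count of 3 reads would have given it 0.106, 0.0927 and 0.0881 FPKM at its mean transcript length of 3102 bases. The endothelial marker Cldn5 was also listed at 0 in a pool with endothelial cells, so a 0 is reported as listed and not as absence of the transcript.

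**Figure D2:**
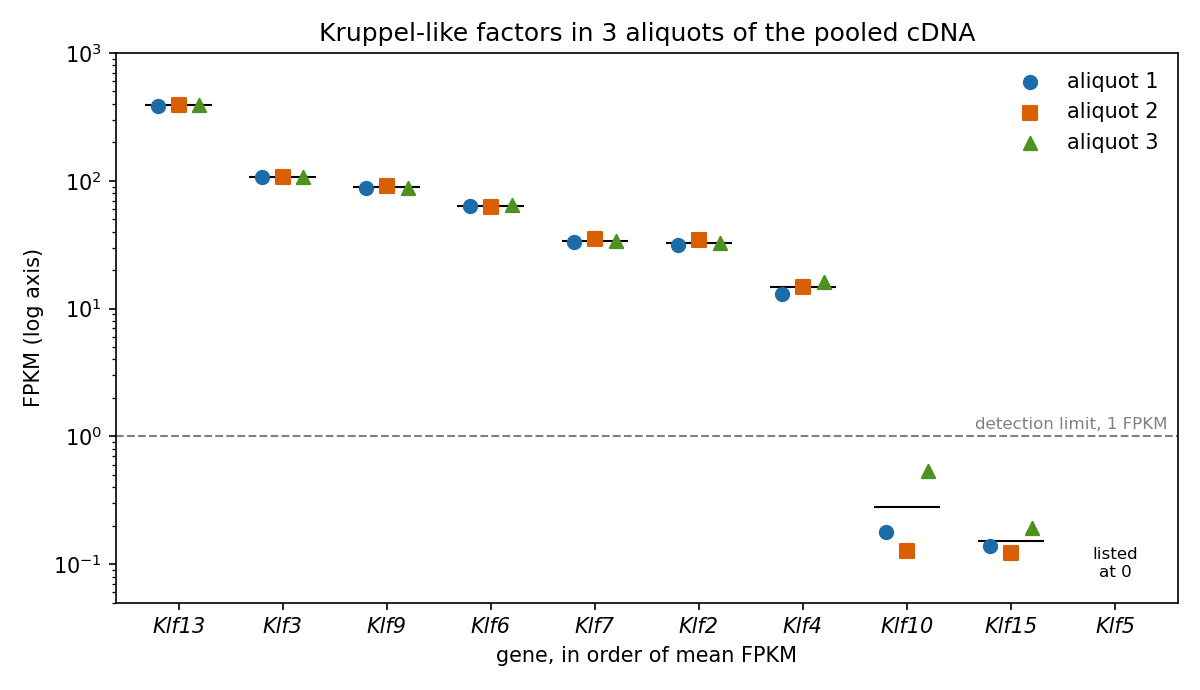
FPKM of each factor (log axis) in aliquots 1, 2 and 3, with a line at the mean and genes in order of mean level. The 7 detected factors lie above the dashed limit of 1 FPKM with points close together, while Klf10 and Klf15 lie below it and Klf5 was listed at 0.

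The order depends in part on the gene length behind the deposited values. The lengths implied by the values were 2105 bases for Klf13, 1938 for Klf3, 1847 for Klf2 and 1470 for Klf4, but 4217 for Klf6, while the longest annotated transcripts have 6396, 5221, 1847, 3029 and 4225 bases. Computed per kilobase of the longest transcript, Klf13 remained highest with 129 ± 1.85 FPKM. Klf9 (64.8 ± 1.07 FPKM) and Klf6 (63.2 ± 0.879 FPKM) then came next, with ranges that overlap, and Klf3 fell below them with 39.7 ± 0.194 FPKM. Klf2 had 32.8 ± 1.30 FPKM on that scale, and Klf4 stayed last of the detected with 7.11 ± 0.741 FPKM. The recovered reads gave Klf7 11.3 ± 0.249 FPKM, at an implied length of 2554 bases. Its longest transcript of 7662 bases is an exact multiple of that length, so a common factor was probably missed in its reads. At 7662 bases its value would be the deposited 34.0 ± 0.748 FPKM, slightly above Klf2. Klf2 and Klf4, the flow-regulated pair, thus kept their order on both scales. Klf3 against Klf9 and Klf3 against Klf6 did not, and no change of order is read for Klf7 against Klf2.

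**Figure D3:**
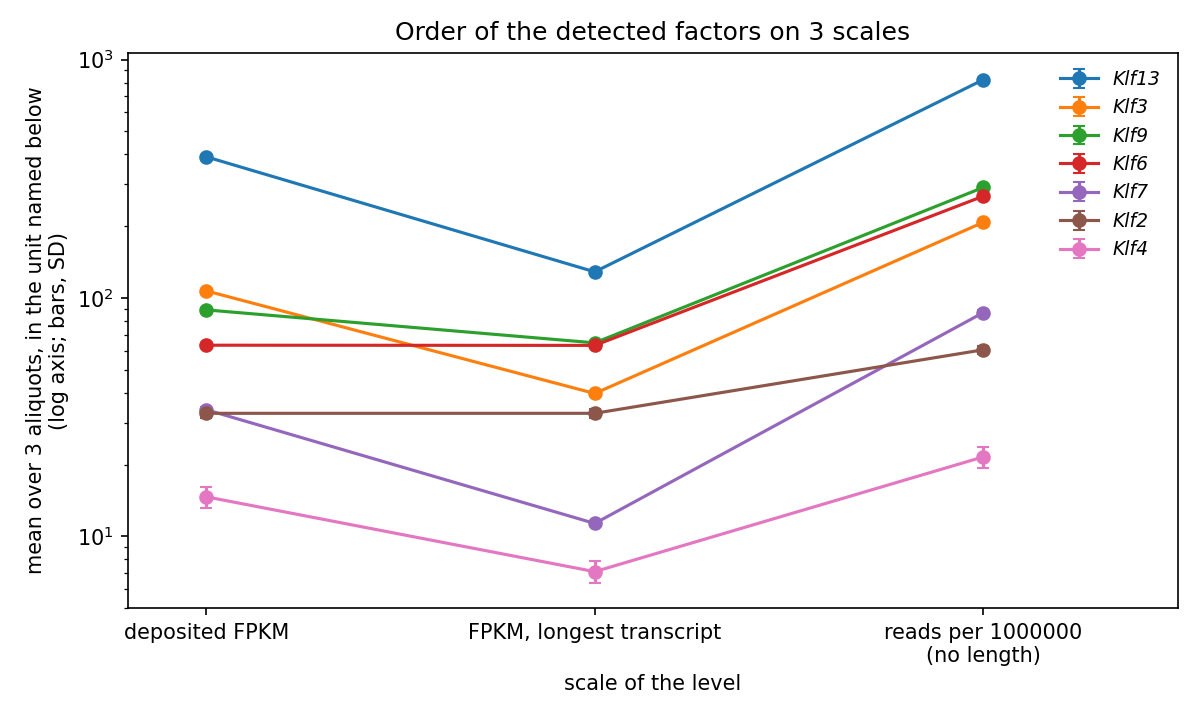
Mean and SD over 3 aliquots of the 7 detected factors as deposited FPKM, as FPKM per longest transcript and as reads per 1000000 without length (log axis, units differ between positions). Klf13 is highest and Klf4 lowest at each position, while the lines of Klf3 and Klf9, of Klf3 and Klf6 and of Klf7 and Klf2 cross. The Klf7 line uses recovered reads in which a common factor was probably missed. Its crossing with Klf2 is not read as a change of order.

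Spread between aliquots beyond what the sampling of reads gives was tested over the whole table. The chi-square test was run on the reads recovered for the 9120 genes that had at least 30 of them, with Benjamini-Hochberg adjustment. The test called 1.09% of those genes and 0 of the 7 factors that entered it. At an unadjusted p under 0.05 it named 1041 of the 9120 genes and 0 of the 7 factors. The smallest adjusted chi-square p among them was 0.556 for Klf4, whose aliquots had the largest coefficient of variation of the 7, 10.4%. Klf13 had an adjusted chi-square p of 0.671 and Klf3 of 0.990. Klf10 and Klf15 had too few reads for the test. With the limit lowered to 10 reads, Klf10 had an unadjusted chi-square p of 0.00365 and an adjusted p of 0.153, so that 0 of 9 factors were called and 1 had an unadjusted p under 0.05.

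**Figure D4:**
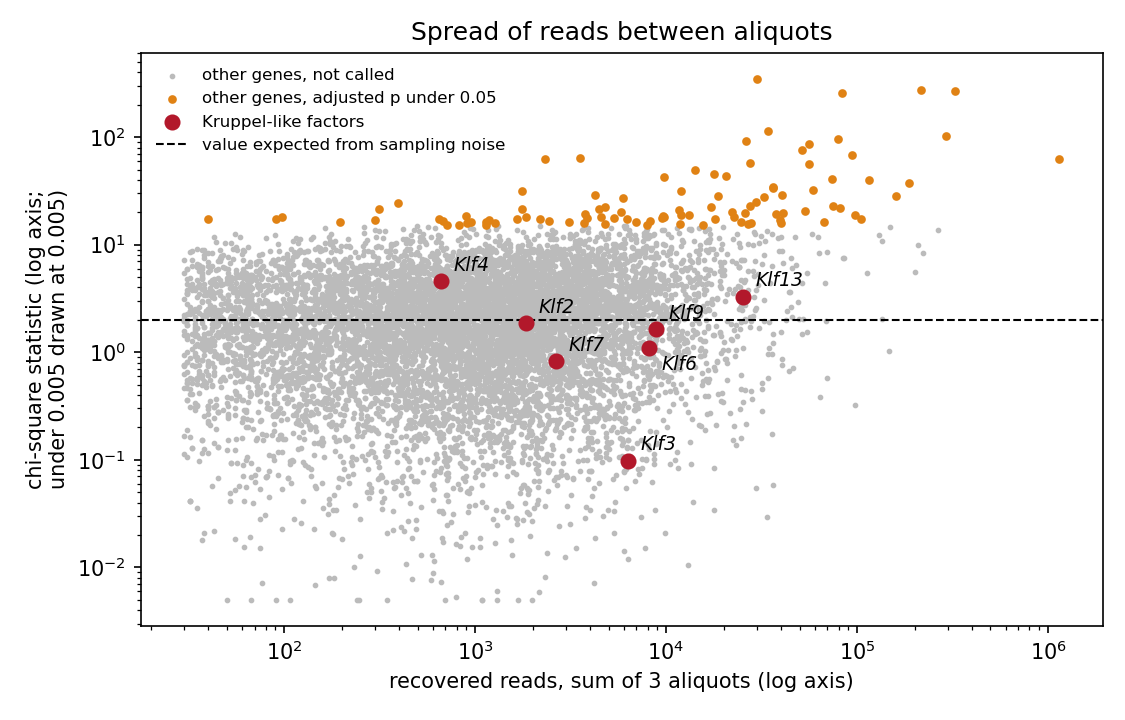
Chi-square statistic of the spread between aliquots against total recovered reads for 9120 genes (both axes log), with the 7 tested factors in red and called genes in orange. The factors lie among the genes that were not called, with Klf4 highest and Klf3 lowest of them, and the dashed line is the value that sampling noise gives on average.

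Against 7 of the 10 factors described above, 2 of the other 7 Klf genes were detected. Klf11, a TGF-beta-inducible repressor close to Klf10, had 18.0, 17.3 and 16.3 FPKM, with a mean of 17.2 ± 0.870 FPKM, and Klf12, a CtBP-binding repressor close to Klf3, had 5.57 ± 0.788 FPKM. Klf1, Klf8, Klf14, Klf16 and Klf17 were listed at 0 in each aliquot. Of the 9 Sp factors, which bind the same GC boxes, Sp1 had 205 ± 2.92 FPKM and Sp3 60.0 ± 5.14 FPKM. Sp2 had 0.654 ± 0.188 FPKM and Sp4 0.0190, 0 and 0.0474 FPKM, and Sp5, Sp6, Sp7, Sp8 and Sp9 were listed at 0. Sp1 lay between Klf13 and Klf3 on the deposited scale, but its implied length is 710 bases where its longest transcript has 7754, and per longest transcript it had 18.7 ± 0.268 FPKM, below Klf2. Klf12 likewise fell below the detection limit on that scale, with 0.878 ± 0.124 FPKM. Both values rest on recovered reads, and a common factor missed in a gene's reads would raise its value. The levels of the gene lists that follow are on the deposited scale. Their counts of detected genes stand beside 21.7% of all rows and 36.5% of protein-coding rows.

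Most genes listed for flow sensing and for the route to Klf2 and Klf4 were detected. The list holds genes that drive the route and genes that restrain it. Of 22 genes of flow sensing and of the kinase route from MEKK3 through MEK5 and ERK5 to MEF2, 20 were detected, and the list's median was 35.8 FPKM. With a limit of 5 FPKM in every aliquot, 17 were. Pecam1, Cdh5 and Kdr are also in the endothelial marker list, and Pecam1 had served to select the cells. Heg1, the endothelial receptor that restrains MEKK3 through the CCM complex, had 376 ± 6.92 FPKM. It was followed by the VEGF receptor gene Kdr (143 ± 4.77 FPKM) and the G protein genes Gna11 (139 ± 2.24 FPKM) and Gnaq (126 ± 3.33 FPKM). The undetected pair was Piezo1, a stretch-gated channel, with 0.0995, 0.0291 and 0.166 FPKM, and Map2k5, which encodes MEK5, with 0.750 ± 0.0392 FPKM. The MEF2 genes, named after their values were seen, had 92.3 ± 1.34 FPKM (Mef2a), 36.0 ± 0.464 FPKM (Mef2c) and 13.6 ± 1.14 FPKM (Mef2d). Mapk7, which encodes ERK5 and was also named after its values were seen, had 3.50 ± 0.477 FPKM.

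Genes that Klf2 and Klf4 are known to raise in endothelium were detected for 6 of 12, with a median of 8.58 FPKM. Plat, the tissue plasminogen activator gene, led with 384 ± 0.654 FPKM, followed by the scaffold gene Slc9a3r2 (87.5 ± 3.14 FPKM), Tek, the angiopoietin receptor (42.2 ± 1.07 FPKM), and thrombomodulin, Thbd (32.9 ± 0.590 FPKM). Plat and Tek are also in the endothelial marker list. The nitric oxide synthase gene Nos3 had 0.0279, 0 and 0 FPKM, from 1 read, and Nppc and Ptgds were listed at 0. Genes that the pair is known to lower were detected for 5 of 8, with a median of 2.89 FPKM. Angpt2, the angiopoietin antagonist, had 107 ± 0.397 FPKM, and the leukocyte adhesion genes Vcam1 and Sele had 34.9 ± 0.840 and 28.1 ± 1.88 FPKM. Ccl2, F3 and Ace were listed at 0. Both lists held members near the level of Klf2 and members listed at 0.

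The field of Klf4 and Klf5 in mural cells was examined with 17 contractile genes and their regulators, of which 13 were detected, with a median of 10.2 FPKM. Cald1 (caldesmon, 1425 ± 16.8 FPKM), Des (desmin, 114 ± 2.22 FPKM), Acta2 (smooth muscle actin, 72.8 ± 1.88 FPKM) and Pdgfrb (the mural PDGF receptor, 70.2 ± 1.12 FPKM) were the highest. Myocd, the coactivator that Klf4 opposes in smooth muscle, and Cnn1 (calponin) were listed at 0, and Srf, the factor that Myocd works on, had 0.0316 ± 0.0113 FPKM from 4 reads. Des and Pdgfrb are also in the mesangial marker list.

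Partners of the factors were detected throughout. All 14 corepressors, coactivators and ubiquitin ligases passed the detection limit, and their median was 23.3 FPKM. The list was led by the acetyltransferase gene Kat2b (241 ± 6.78 FPKM), the deacetylase gene Hdac1 (152 ± 4.47 FPKM), the corepressor Ncor1 (95.5 ± 3.58 FPKM) and Sin3a (38.3 ± 0.218 FPKM), the corepressor of Klf9, Klf10 and Klf13. The CtBP genes Ctbp1 and Ctbp2, partners of Klf3 named after their values were seen, had 31.4 ± 1.97 and 29.7 ± 1.53 FPKM.

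Glucocorticoid genes were set beside Klf9 and Klf15, both known targets of that hormone, and 7 of 10 were detected, with a median of 10.7 FPKM. Sgk1, a kinase gene induced by steroids, had 814 ± 20.2 FPKM, the target Tsc22d3 52.9 ± 1.62 FPKM, the glucocorticoid receptor gene Nr3c1 50.5 ± 0.735 FPKM and the mineralocorticoid receptor gene Nr3c2 18.4 ± 0.935 FPKM. Hsd11b1, which regenerates the active hormone, was listed at 0, Hsd11b2 had 1 read, and Zbtb16 had 0.508 ± 0.111 FPKM. Klf9 stood with the higher of these genes and Klf15 with the lowest.

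Klf2, Klf4, Klf6 and Klf10 are known to respond quickly to stress, so 23 immediate early and stress genes were examined beside them. Of these 13 were detected, with a median of 1.93 FPKM and a summed level of 471 to 485 FPKM. Nfkbia, the inhibitor of NF-kappaB, had 175 ± 2.68 FPKM, the phosphatase gene Dusp1 148 ± 5.04 FPKM, Hspb1 43.2 ± 2.80 FPKM and Btg2 22.8 ± 0.356 FPKM, while Fos, Junb and Atf3 were listed at 0 in each aliquot. Their part in the levels of the factors was not tested. Podocyte markers, given above as a list, were led by Wt1 (101 ± 3.18 FPKM), Podxl (75.9 ± 2.15 FPKM), Nphs1 (37.6 ± 2.37 FPKM) and Synpo (36.7 ± 1.04 FPKM), with Clic3 at 0, 0 and 0.126 FPKM, Lmx1b at 0.237 ± 0.111 FPKM and Ptpro at 0.887 ± 0.135 FPKM. Beside them the podocyte-associated factors Klf6 and Klf15 had 63.3 and 0.150 FPKM, and the part of podocyte RNA in these levels was not tested.

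**Figure D5:**
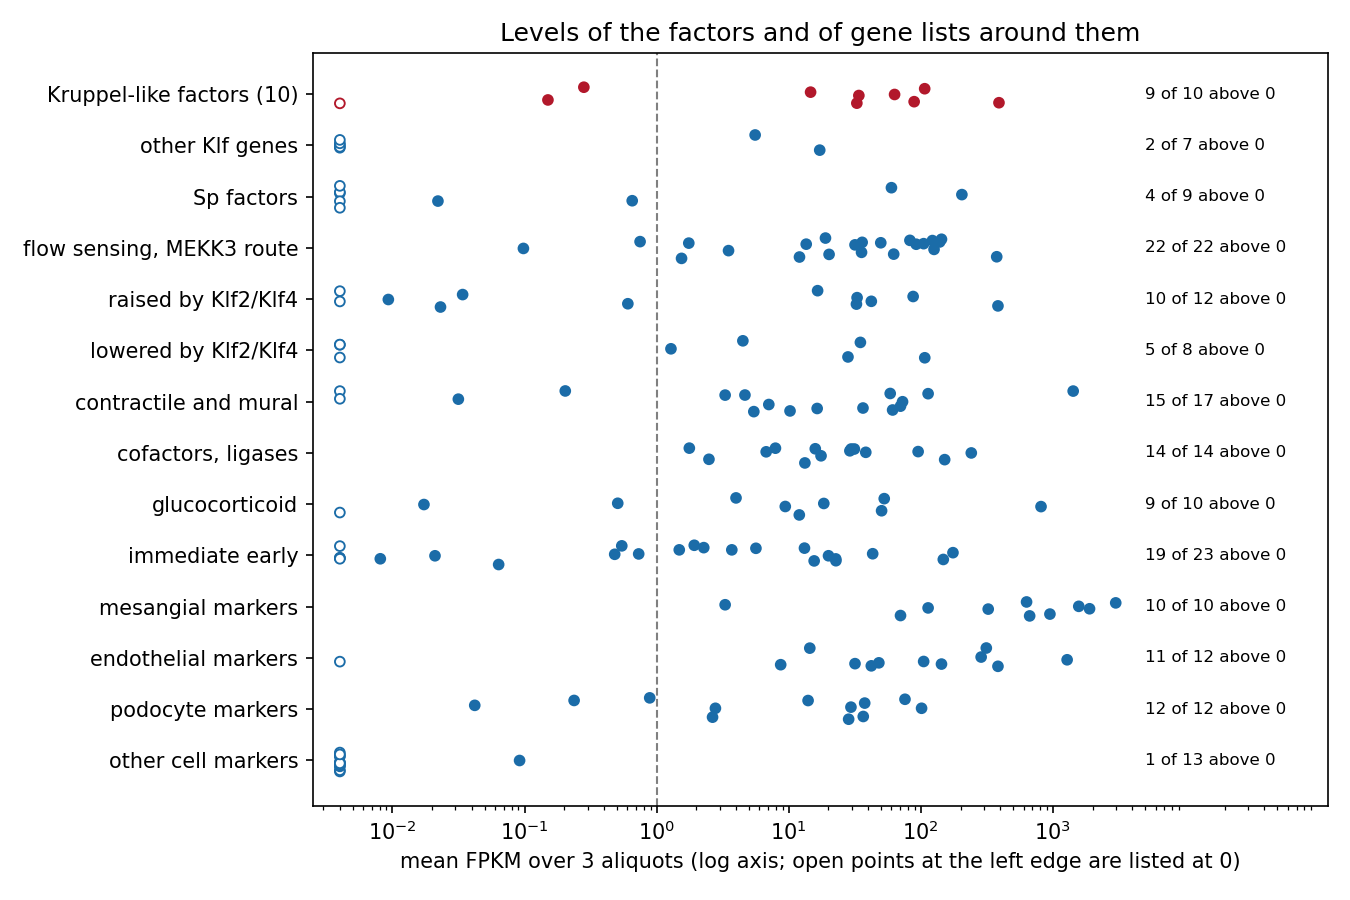
Mean FPKM over 3 aliquots (log axis) of each gene in the set of 10 factors and in 13 lists around them, with open points at the left edge for genes listed at 0 and a dashed line at 1 FPKM. The factors fall into 7 genes between 14.6 and 391 FPKM and 3 genes under 1 FPKM, and the cofactor list lies wholly above the line.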

How the data were processed

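RNA-seq of 3 aliquots of 1 cDNA pool was used, from 1 table whose values the authors deposited as FPKM. Per the submitters' processing notes, TopHat2 2.0.12, HTSeq 0.6.1 and GRCm38 were used; the annotation release, gene length definition, strand setting and read length were not given there or in the file. Identifiers were matched to symbols by the reference's name table, with 37607 of 39179 Ensembl identifiers matched. Library totals and reads were recovered from the steps of low FPKM values, with a tolerance of 0.0001 reads, for 100% of the 11142 genes above 0. The recovered reads sum to 96.7% of the library total in each aliquot. A common factor of a gene's reads cannot always be resolved. The recovery and the chi-square test were tested on simulated data. GENCODE M21 supplied gene positions and lengths of transcripts, and RefSeq the promoters. Python 3.11.15, scipy 1.17.1 and Biopython 1.88 were used. No count model was run, as there is 1 group. Likeness of pattern across samples was not computed over 3 aliquots. Named genes were all Klf and Sp genes and, of each list, up to 4 highest detected and 3 lowest undetected; others are said to be named after their values were seen. A gene that this rule names is not reported here. Members and lists were chosen with earlier results of these data known. Nothing separates the aliquots except library making, so p-values measure technical spread.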

Additional observations from a re-analysis of the deposited data

How the results depend on the processing

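The count of 7 detected factors was the same at 0.5 and 5 FPKM, with the mean in place of every aliquot, and without any 1 aliquot. The median level of the 10 factors, 33.4 FPKM as deposited, was 32.9 to 33.9 FPKM without 1 aliquot. From recovered reads it came out at 22.1 FPKM per kilobase of the longest transcript and 73.7 reads per 1000000 with no length. Both of these use the Klf7 reads, in which a common factor was probably missed. With Klf7 at 7662 bases, the middle genes Klf7 and Klf2 keep their deposited values per longest transcript, and that median stays at 33.4 FPKM. The median with no length would then be higher. The log2 ratio of Klf3 to Klf9 of 0.27 turned to -0.71 per longest transcript and to -0.49 per 1000000 reads. The differences for Klf3 and Klf9 rest on the lengths used. That of Klf7 to Klf2 of 0.05 came out at -1.53 per longest transcript from the recovered reads. It stays at 0.05 with Klf7 at 7662 bases, so this turn is not read as a change of order. A pseudocount of 0.1 or 1 FPKM or leaving out 1 aliquot turned no neighbouring pair. Chi-square calls among the factors stayed at 0 with limits of 10 and 100 reads, at which 99 and 102 genes of the table were called against 99. At 5 FPKM, the genes detected fell to 3 of the 8 lowered by Klf2 or Klf4 and to 8 of the 23 immediate early genes. Smaller falls were found for flow genes (20 to 17), contractile and mural genes (13 to 10), cofactors (14 to 12) and podocyte markers (9 to 7). Mesangial markers fell from 10 to 9 and glucocorticoid genes from 7 to 6. No paired analysis was possible because there is 1 group. The precision of Klf10 and Klf15 is limited by their 27 and 11 reads.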

Other observations

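Of the 118 genes of the factors and lists with at least 30 reads, 6 (5.08%) were called by the chi-square test with Benjamini-Hochberg adjustment, against 1.09% of all 9120 genes tested and 10.5% of the 506 genes with at least 10000 reads. They were picked out after their values were seen. Sp3, the GC box factor closest to Sp1, had 65.8, 56.3 and 57.8 FPKM in aliquots 1, 2 and 3 (adjusted chi-square p = 0.00326). Fhl3, which encodes a LIM protein that binds Klf3, had 10.6, 6.65 and 6.53 FPKM (adjusted chi-square p = 0.0267), and the endothelial cadherin gene Cdh5 had 34.9, 30.5 and 29.9 FPKM (adjusted chi-square p = 0.0195). The other 3 each had over 10000 reads. The mesangial gene Gata3 had 3232, 2877 and 2867 FPKM, with the largest chi-square of the 6, 255.8. The mesangial gene Rgs5 had 1609, 1568 and 1537 FPKM, and the endothelial gene Emcn had 1259.7, 1283 and 1304 FPKM. Aliquot 1 was the highest for 5 of the 6 genes and the lowest for Emcn.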
